A study of Mus musculus with 27 samples.

Results

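The miR-181 family was measured in 27 small RNA libraries from mouse cortex after an experimental stroke. Of the 1842 mature miRNA entries in the count table, 7 were taken by name. They are the 4 guide strands mmu-miR-181a-5p, mmu-miR-181b-5p, mmu-miR-181c-5p and mmu-miR-181d-5p and the 3 passenger strands mmu-miR-181a-1-3p, mmu-miR-181a-2-3p and mmu-miR-181c-3p, named below without the species prefix. A miRNA hairpin gives 2 arms: the guide strand is the one mostly kept, and the passenger strand is the one mostly discarded. All 7 were in the table and all 7 were among the 1470 entries with enough counts to test. The passenger strands miR-181b-1-3p, miR-181b-2-3p and miR-181d-3p from the remaining hairpins were followed beside them for context.

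The animals were wild-type C57BL6 mice, a common inbred strain, aged 7 to 8 weeks. In the stroke groups the middle cerebral artery was occluded for 35 min (middle cerebral artery occlusion, MCAO). Cortex was taken after 3, 6, 12 or 24 h of reperfusion, the return of blood flow, and times below are hours of reperfusion. The ipsilateral cortex (ipsi), on the side of the occlusion, and the contralateral cortex (contra), on the opposite side, each gave 3 libraries at each time, and sham-operated mice without occlusion gave 3 more. The 9 groups thus hold 3 libraries each, and the replicates of a group were prepared on different days of surgery. The labels name cortex with no finer region, and the sources used here do not tell whether an ipsilateral and a contralateral library came from 1 animal.

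A miRNA guide strand is loaded into an Argonaute protein and represses messenger RNAs that pair with its seed, the bases near its 5′ end. The miR-181 family is abundant in brain and in developing lymphocytes, where miR-181a is known for tuning T cell receptor signalling. In brain, miR-181 has been studied in astrocytes and neurons, with the chaperone Hspa5 and apoptosis regulators of the Bcl2 family among the targets reported.

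The sequences show what the members share. All 4 guide strands carry the same seed, ACAUUCA, printed in capitals at bases 2 to 8, and differ only downstream of it. They are given 5′ to 3′ from RefSeq on GRCm38.p6.
miR-181a-5p: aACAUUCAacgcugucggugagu
miR-181b-5p: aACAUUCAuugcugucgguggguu
miR-181c-5p: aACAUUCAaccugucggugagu
miR-181d-5p: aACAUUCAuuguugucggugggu
Counting from 1 at the 5′ end, miR-181b-5p differs from miR-181a-5p at A9U, C10U and A21G and is longer by 1 base. miR-181d-5p differs from miR-181a-5p at A9U, C10U, C12U and A21G. It differs from miR-181b-5p at C12U over their shared length. miR-181c-5p equals miR-181a-5p with 1 internal base removed. The sources used here do not tell how reads matching several entries were counted, so single guide strands are uncertain to the extent that short or mismatched reads were shared among them.

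The passenger strands are shown because they tell the hairpins apart where the guide strands do not. The first 3 of these lines are members, and the others are the context arms.
miR-181a-1-3p: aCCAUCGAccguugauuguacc
miR-181a-2-3p: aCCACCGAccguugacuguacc
miR-181c-3p: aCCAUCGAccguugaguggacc
miR-181b-1-3p: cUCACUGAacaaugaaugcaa
miR-181b-2-3p: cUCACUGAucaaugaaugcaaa
miR-181d-3p: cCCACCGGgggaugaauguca
miR-181a-1-3p and miR-181c-3p share the seed CCAUCGA and differ at U16G and U19G, with the base of miR-181a-1-3p first. The seed of miR-181a-2-3p departs from that of miR-181a-1-3p through U5C, and the arms also differ at U16C. miR-181b-1-3p and miR-181b-2-3p share the seed UCACUGA and differ at A9U, with miR-181b-2-3p longer by 1 base. Among the 1587 table entries with a RefSeq mature sequence, no entry outside the family carried any of these 5 seeds.

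The hairpins lie at 3 places in the genome (GRCm38). Mir181a-1 (chr1:137966455-137966541) and Mir181b-1 (chr1:137966639-137966718) sit on the plus strand 97 bases apart, in an exon of the lincRNA A430106G13Rik on the same strand. Mir181a-2 (chr2:38852735-38852810) and Mir181b-2 (chr2:38853830-38853918) sit on the plus strand 1019 bases apart, inside an intron of Nr6a1, a nuclear receptor gene transcribed from the opposite strand. Mir181d (chr8:84178716-84178787) and Mir181c, whose mature arms span chr8:84178885-84178945, sit on the minus strand in an intron of Nanos3, on the same strand. The hairpins of the chromosome 1 and chromosome 2 pairs give identical miR-181a-5p and identical miR-181b-5p, so each of these counts pools 2 loci, while the passenger strands are counted per locus. The a-type hairpins are shown with both mature arms in capitals, in the sequence order 5p then 3p, to make this visible.
Mir181a-1: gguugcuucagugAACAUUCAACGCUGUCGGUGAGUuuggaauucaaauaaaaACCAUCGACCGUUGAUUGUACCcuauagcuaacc
Mir181a-2: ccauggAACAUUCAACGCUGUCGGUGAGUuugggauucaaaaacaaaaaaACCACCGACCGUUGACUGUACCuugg
The first capital run is the same in both hairpins and the second is not.

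Library totals ran from 856591 to 1903416 counts. Levels are in CPM, counts scaled to a common library size that includes a composition factor (TMM, from edgeR), unless CPM of the total alone is named. Neuron-enriched miRNAs (miR-124-3p, miR-9-5p, miR-128-3p and miR-138-5p) were detected in every group, with summed levels between 64516 and 193223 CPM over all libraries. Sham replicate 2 and ipsi_6h replicate 3 stood apart in miRNAs of epithelium (the miR-200 and miR-183 clusters), with summed levels of 28678 and 25015 CPM, while no other library exceeded 941 CPM. Member medians, the ratios between members and the 24 h values of miR-181b-1-3p against sham are given with and without these libraries where they entered.

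miR-181a-5p was the most abundant entry of the whole table by mean level, at 100385 ± 21474 CPM (SD, n = 27), and ranked first in 19 of the 27 libraries. The mean levels of the other guide strands were 7900 ± 1670 CPM for miR-181b-5p (rank 25), 5876 ± 1348 CPM for miR-181c-5p (rank 33) and 927 ± 228 CPM for miR-181d-5p (rank 83). These entries are 22 to 24 bases long, so no correction for length was made. Whether different sequences were captured equally well was not tested. Together the 4 guide strands took 11.4% ± 1.72 of the counts of a library (SD, n = 27), from 9.01% to 15.4%. Within the guide strands, miR-181a-5p held 87.2% ± 0.533, miR-181b-5p 6.88% ± 0.452, miR-181c-5p 5.11% ± 0.476 and miR-181d-5p 0.810% ± 0.145 (SD, n = 27 each). Relative to its mean, each of these shares varied less between libraries than the level of the same strand did.

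The passenger strands were much lower. miR-181a-1-3p averaged 903 ± 167 CPM (rank 87), miR-181c-3p 361 ± 73.7 CPM (rank 160) and miR-181a-2-3p 11.4 ± 3.89 CPM (rank 900; SD, n = 27 each). miR-181a-2-3p rested on 4 to 22 counts per library, so its values carry wide counting error. Per 100 counts of its own guide strand, miR-181c-3p gave 6.21 ± 0.595 counts and miR-181a-1-3p gave 0.909 ± 0.0871 counts (SD, n = 27). Summed over the 27 libraries, miR-181a-1-3p had 27631 counts against 353 for miR-181a-2-3p, a ratio of 78.3, and the ratio within the sham libraries was 75.7. The files do not say how much of miR-181a-5p comes from each locus.

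**Figure D1:**
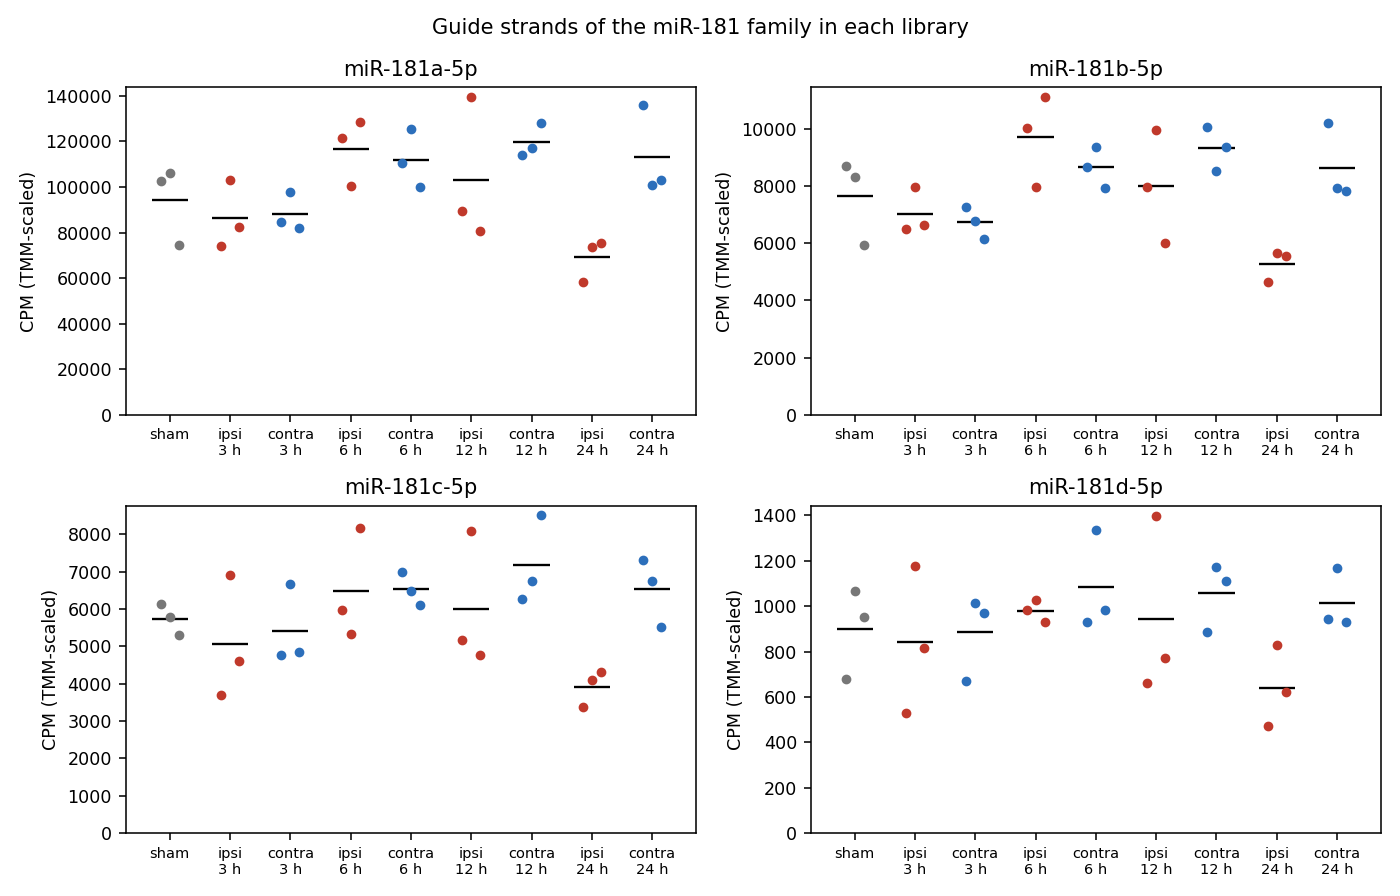
Levels of the 4 guide strands (y axes, CPM scaled by TMM, each from 0) in the 27 libraries, grouped on the x axis with sham first and then ipsilateral (red) and contralateral (blue) cortex at 3, 6, 12 and 24 h; each point is a library and each bar a group mean. In all 4 panels the ipsi_24h group has the lowest mean, such as 69198 CPM for miR-181a-5p.

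The main question of the time course was how the ischemic cortex differed from the opposite cortex as recovery went on. At 24 h all 7 members were lower in ipsilateral than in contralateral cortex by fitted value, and 3 passed the test: miR-181a-5p, miR-181b-5p and miR-181c-5p. These were lower in ipsi_24h than in contra_24h by 1.64-fold, 1.64-fold and 1.66-fold. Across the table, 1.43% of the 1470 entries tested were called lower in this comparison, and 6.99% of the 286 entries with a mean of at least 100 CPM. Lower fitted values were common among the abundant entries: 222 of those 286 had a fitted value below 0, and 46 of them were more negative than miR-181a-5p.

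miR-181a-5p had 58304, 73812 and 75478 CPM in the ipsi_24h libraries (replicates 1 to 3), against 136110, 100740 and 102919 CPM in the contra_24h libraries. The groups did not overlap, and both extremes came from replicate 1. The fitted log2 difference was -0.71 ± 0.22 (SE) and edgeR's quasi-likelihood test gave an adjusted p of 0.0256. miR-181b-5p had 4632, 5674 and 5547 CPM in ipsi_24h, against 10206, 7928 and 7830 CPM in contra_24h. Again the groups did not overlap, and the log2 fold change was -0.71 ± 0.21 (SE; edgeR adjusted p = 0.0218). miR-181c-5p, from the Nanos3 intron, had 3377, 4092 and 4306 CPM in ipsi_24h, against 7314, 6744 and 5505 CPM in contra_24h. Its groups did not overlap either, and its log2 fold change of -0.73 ± 0.25 (SE) lay close to the threshold, at an edgeR adjusted p of 0.0491.

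The least abundant guide strand, miR-181d-5p, had 471, 827 and 623 CPM in ipsi_24h, against 944, 1166 and 928 CPM in contra_24h. The groups did not overlap, but the log2 fold change of -0.66 ± 0.30 (SE) did not pass the test (edgeR adjusted p = 0.175). Of the passenger strands, miR-181a-1-3p had 541, 754 and 687 CPM in ipsi_24h, against 1001, 1022 and 872 CPM in contra_24h. miR-181c-3p had 211, 283 and 244 CPM in ipsi_24h, against 416, 447 and 345 CPM in contra_24h. Neither passenger strand overlapped between the groups. Their log2 fold changes were -0.55 ± 0.23 and -0.71 ± 0.25 (SE), with edgeR adjusted p of 0.124 and 0.0668. miR-181a-2-3p had 8, 15 and 13 counts in ipsi_24h and 21, 13 and 7 counts in contra_24h. These overlapped, and its log2 fold change was -0.60 ± 0.40 (SE; edgeR adjusted p = 0.375).

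In all, 6 of the 7 members did not overlap between the hemispheres at 24 h, all lower in ipsilateral cortex. The share of entries with non-overlapping lower values was 12.0% over all entries tested and 39.5% over the 286 abundant ones. The members' median log2 fold change was -0.71, beside -0.46 for the 286 abundant entries and 0.08 for all 1470.

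The replicate numbers mark days of surgery, so the difference can also be taken within a day. On TMM-scaled levels ipsi_24h lay below contra_24h within each of the 3 days for 6 members, and for miR-181a-2-3p in 2 of 3 days. On CPM of the total alone this held in each day only for miR-181c-5p and miR-181c-3p. In replicate 2 miR-181a-5p had 86939 in ipsi_24h, against 83560 in contra_24h on that measure. There miR-181b-5p, miR-181d-5p, miR-181a-1-3p and miR-181a-2-3p were also higher in ipsi_24h. With the day as a block in the edgeR model, still with TMM factors, 6 of the 7 members were called lower, all but miR-181a-2-3p (adjusted p = 0.320). Under the block 6.53% of all entries and 30.4% of the abundant ones were called lower, so calls became more frequent among abundant entries as a whole. The blocked adjusted p was 0.00821 for miR-181d-5p, 0.0099 for miR-181c-3p and 0.0281 for miR-181a-1-3p, the members that the unblocked model did not call. Their log2 fold changes barely moved under the block, at -0.70, -0.72 and -0.55.

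**Figure D2:**
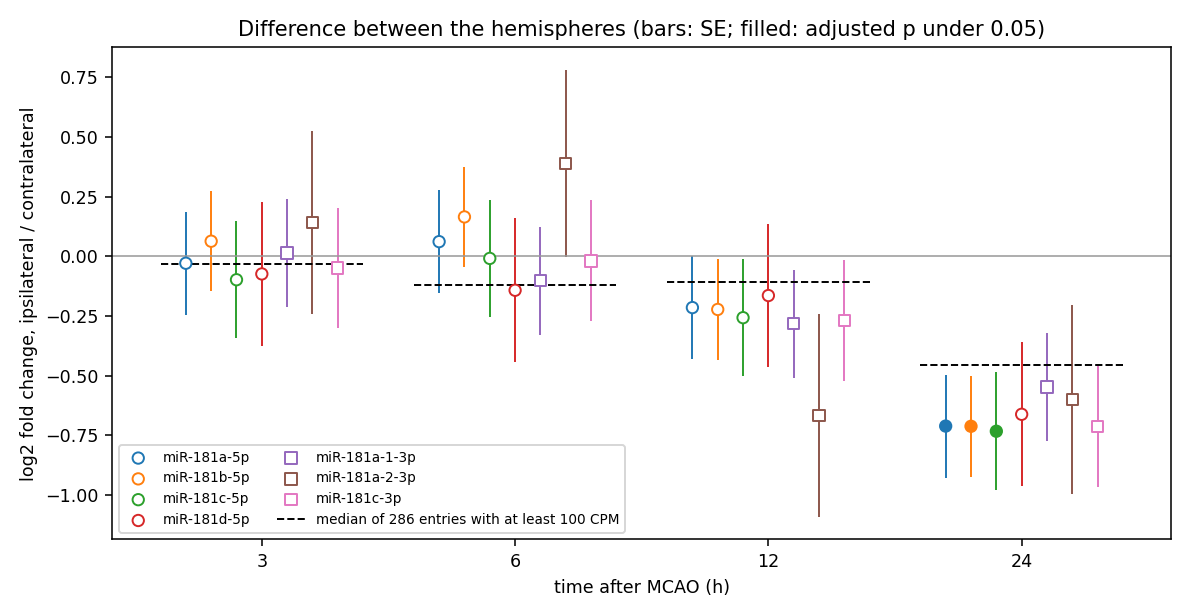
Log2 fold change of each member, ipsilateral over contralateral (y axis), at 3, 6, 12 and 24 h (x axis); circles are guide strands, squares passenger strands, bars SE, filled symbols an adjusted p under 0.05, and dashed lines the median of the 286 entries with at least 100 CPM. At 24 h the members lie between -0.73 and -0.55, all below the dashed line at -0.46.

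The calls at 24 h rested on the scaling and on single libraries. The TMM factors were 1.43, 1.18 and 1.25 in ipsi_24h, against 0.928, 0.829 and 0.990 in contra_24h, and this difference enters every TMM-scaled value at 24 h. Under total counts alone the median of all entries moved to a log2 fold change of 0.57, and the members' median was -0.23 with 0 of 7 called. With TMM factors taken from abundant entries the median of all entries was 0.45, and the members' median was -0.35 with 0 of 7 called. The members' fitted values stayed below 0 under each of these scalings and below the median of all entries. On CPM of the total alone, miR-181c-5p and miR-181c-3p were the 2 members whose hemispheres did not overlap, where 1.29% of all entries and 5.59% of the abundant ones were lower without overlap. As a share of all counts, the 4 guide strands made up 9.57%, 9.94% and 10.7% in ipsi_24h, against 14.3%, 9.67% and 11.6% in contra_24h, and these overlapped.

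**Figure D3:**
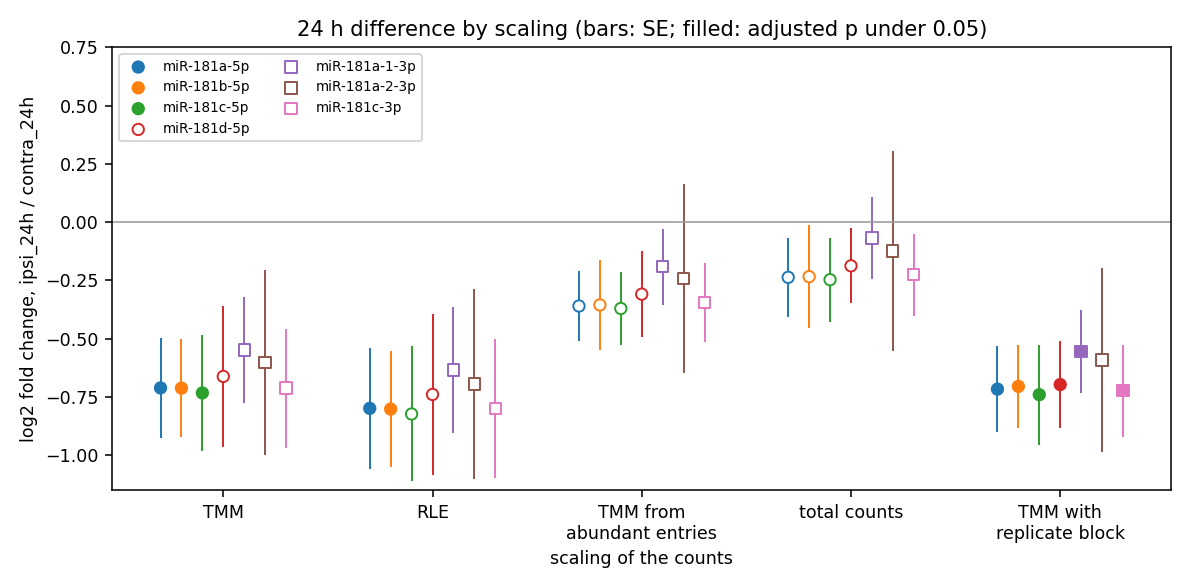
Log2 fold change at 24 h, ipsi_24h over contra_24h (y axis), of the 7 members under 5 ways of scaling or fitting the counts (x axis); bars are SE and filled symbols have an adjusted p under 0.05. The members stay below 0 in each, with medians from -0.80 under RLE, a median-of-ratios factor, to -0.23 under total counts.

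Leaving out either replicate 1 library at 24 h ended all 3 calls. With contra_24h replicate 1 left out, edgeR gave adjusted p of 0.169 for miR-181a-5p, 0.144 for miR-181b-5p and 0.181 for miR-181c-5p. With ipsi_24h replicate 1 left out these were 0.201, 0.175 and 0.260. The log2 fold changes in the absence of either library stayed between -0.64 and -0.56 for these guide strands. For miR-181c-5p, leaving out ipsi_24h replicate 2 or 3 or contra_24h replicate 2 also ended the call, at adjusted p of 0.0908, 0.0682 and 0.130.

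Markers of the cells that cortex samples can hold were summed by list, and most sums were lower in ipsi_24h as well, although none of the tested markers was called in either direction. The neuron markers ran from 67344 to 99746 CPM in ipsi_24h, against 105357 to 159686 CPM in contra_24h, and all 4 had a fitted value below 0. On these TMM-scaled levels the neuron sums did not overlap between the hemispheres, as was the case for miR-181a-5p. Among single entries, 39.5% of the 286 abundant ones were lower without overlap on the same scale. On CPM of the total alone miR-181a-5p overlapped, at 83569 to 94060 in ipsi_24h against 83560 to 126257 in contra_24h. The marker sums are given on TMM-scaled levels only. Vessel markers (miR-126a-3p, miR-143-3p and miR-145a-5p; 3 of 3 below 0) summed to 9439 to 16779 CPM in ipsi_24h, against 15323 to 39470 CPM in contra_24h. Oligodendrocyte markers (miR-219a-2-3p and miR-338-3p; 2 of 2 below 0) summed to 977 to 1788 CPM in ipsi_24h, against 1787 to 2512 CPM in contra_24h. Leukocyte markers (miR-142a-3p, miR-142a-5p, miR-223-3p and miR-150-5p; 3 of 3 tested below 0) summed to 798 to 1076 CPM in ipsi_24h, against 1070 to 1759 CPM in contra_24h. The ranges of these 3 lists overlapped at their edges. Erythrocyte markers (miR-451a and miR-144-3p; 2 of 2 below 0) summed to 90.2 to 120 CPM in ipsi_24h, against 105 to 166 CPM in contra_24h. Choroid plexus markers (miR-204-5p and miR-211-5p; 1 of 2 below 0) summed to 2233 to 2809 CPM in ipsi_24h, against 2826 to 5321 CPM in contra_24h. Muscle markers (miR-1a-3p, miR-133a-3p and miR-206-3p; 1 of 1 tested below 0) summed to 82.6 to 121 CPM in ipsi_24h, against 181.5 to 198.7 CPM in contra_24h. Of these lists, the choroid plexus and muscle sums did not overlap. Epithelial markers were the list with a higher sum, with 561 to 941 CPM in ipsi_24h, against 434 to 490 CPM in contra_24h (3 of 5 tested below 0). No marker in these lists was at 0 in all libraries of either group. The part of other cells in the miR-181 values was not tested, and in bulk tissue fewer cells of a type and less RNA per cell cannot be told apart.

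Earlier times showed no called member. The edgeR test called 0 of 7 members between the hemispheres at 3, 6 and 12 h, and no member had an unadjusted p under 0.05. DESeq2 also called 0 at these times, with 1 member left without a value for the call at 3 h. The background of entries called lower was 0.0% at each of these times, and 4.35% were called higher at 12 h. At 3 h the members' log2 fold changes ran from -0.10 to 0.14 with a median of -0.03. At 6 h they ran from -0.14 to 0.39 with a median of -0.01, or -0.11 without ipsi_6h replicate 3. Under total counts alone these medians were 0.04 at 3 h and 0.14 at 6 h, so their sign depended on the scaling.

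At 12 h all 7 fitted values were below 0, from -0.67 to -0.16, with a median of -0.26 beside -0.11 for the abundant entries. miR-181a-5p had 89499, 139734 and 80499 CPM in ipsi_12h, against 114231, 117128 and 128073 CPM in contra_12h. The ipsi_12h library of replicate 2 was the highest of these 6 libraries and the others of its group were the lowest. This order rested on the scaling, as the TMM factor of that library was 0.676, against 1.14 and 1.08 in the others of its group. On CPM of the total alone, miR-181a-5p had 101717, 94510 and 87033 in ipsi_12h, against 116626, 90568 and 98022 in contra_12h. On TMM-scaled levels ipsi_12h replicate 2 was the highest of its group for all 4 guide strands. Without it the members' median at 12 h was -0.53. miR-181a-2-3p was the 1 member whose groups did not overlap, where 2.72% of entries were lower without overlap.

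The group means of miR-181a-5p set these comparisons in order. In ipsilateral cortex the means were 86455 ± 14842 CPM at 3 h, 116906 ± 14662 at 6 h, 103244 ± 31920 at 12 h and 69198 ± 9471 at 24 h (SD, n = 3 each). In contralateral cortex they were 88208 ± 8601 CPM at 3 h, 112031 ± 12875 at 6 h, 119811 ± 7300 at 12 h and 113256 ± 19822 at 24 h, and sham cortex had 94360 ± 17272 CPM (SD, n = 3 each). Neighbours in this order lay within 1 SD of each other except for the lowest: ipsi_24h stood below ipsi_3h, the next lowest group, by more than either SD. For all 7 members the lowest of the 9 group means was that of ipsi_24h. Both statements hold for TMM-scaled levels. On CPM of the total alone, miR-181a-5p had 88189 ± 5356 in ipsi_24h and 93131 ± 17892 in sham, the next lowest group (SD, n = 3 each). That gap was smaller than either SD. On the same measure miR-181a-1-3p and miR-181a-2-3p had their lowest mean in ipsi_12h, at 835 and 8.14, against 839 and 10.9 in ipsi_24h.

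Tests that pooled the times called no member. For the mean hemisphere difference over the 4 times, the members' median log2 fold change was -0.23, all 7 were below 0, and edgeR called 0 of 7 (lowest adjusted p = 0.186), where 0.476% of entries were called lower. That median was -0.24 without ipsi_6h replicate 3, -0.11 with TMM factors from abundant entries and -0.02 under total counts. DESeq2 also called 0, and 3 members had an unadjusted p under 0.05. With the day as a block 1 member was called, miR-181d-5p, where 4.97% of entries were called lower. In a joint edgeR test of a hemisphere difference at any time, 8.98% of entries were called but 0 of 7 members (adjusted p from 0.194 to 0.749, 2 with an unadjusted p under 0.05), and 0 in DESeq2. In the joint test of whether the hemisphere difference changed over time, 0.612% of entries were called and 0 of 7 members (edgeR adjusted p from 0.433 to 0.998, 1 with an unadjusted p under 0.05), and 0 in DESeq2. The hemisphere difference at 24 h was therefore not shown to differ from those at earlier times. Leaving out ipsi_12h replicate 2 gave 2 calls in the mean over times and 1 in the test at any time.

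Against sham cortex, the 24 h values pointed the same way with smaller sizes. No member was called by edgeR or DESeq2, where edgeR called 1.36% of entries lower, or 3.5% of the abundant ones; 4 members had an unadjusted p under 0.05. miR-181b-5p had 4632, 5674 and 5547 CPM in ipsi_24h, against 8714, 8339 and 5957 CPM in sham. The groups did not overlap, sham replicate 3 being close to the ipsilateral libraries, and the log2 fold change was -0.54 ± 0.21 (SE; edgeR adjusted p = 0.104). For miR-181a-5p the sham libraries had 102538, 106024 and 74519 CPM, the last of them within the ipsi_24h range, and the log2 fold change was -0.45 ± 0.22 (SE; edgeR adjusted p = 0.203).

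The members' median against sham at 24 h was -0.49, beside -0.38 for the abundant entries. It was -0.37 without sham replicate 2, the library high in epithelial miRNAs. Its size depended on the scaling, at -0.22 with TMM factors from abundant entries and -0.12 under total counts. miR-181b-5p, miR-181c-5p and miR-181c-3p did not overlap, where 11.6% of all entries and 27.6% of the abundant ones were lower without overlap. With the day as a block 2 members were called lower than sham at 24 h, where 4.69% of all entries and 18.2% of the abundant ones were called lower. They were miR-181b-5p, at -0.52 ± 0.18 (SE; adjusted p = 0.0419), and miR-181c-3p, at -0.57 ± 0.20 (SE; adjusted p = 0.0438).

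Ipsilateral cortex at 3, 6 and 12 h against sham also gave 0 calls in edgeR and in DESeq2 and no unadjusted p under 0.05, with 0.0%, 0.0% and 0.68% of entries called lower and 4.76% called higher at 12 h. In DESeq2, 1 member was left without a value for the call at 3 h and 1 at 6 h. The members' medians were -0.12, 0.18 and 0.06. Without sham replicate 2 they were -0.06, 0.27 and 0.09, and the median at 6 h was 0.17 without ipsi_6h replicate 3. The medians at 3 h and 12 h changed sign under total counts, to 0.06 and -0.06, and the median at 12 h was -0.21 without ipsi_12h replicate 2. The comparisons with sham share the same 3 sham libraries.

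Contralateral cortex against sham gave 0 member calls at each time in edgeR and in DESeq2, no unadjusted p under 0.05, and no call among the entries as a whole (0.0% in each direction). The members' medians were -0.10, 0.19, 0.28 and 0.17 at 3, 6, 12 and 24 h, beside -0.07, 0.11, 0.24 and 0.09 for the abundant entries. Without sham replicate 2 the medians were -0.06, 0.25, 0.38 and 0.25. Under total counts they were 0.01, 0.06, 0.08 and 0.06, so they lay near 0 and the sign at 3 h changed. Without contra_24h replicate 1 the median at 24 h was 0.10, and without contra_24h replicate 3 it was 0.27. All 7 fitted values were above 0 at 12 h, from 0.23 to 0.34, and at 24 h, from 0.12 to 0.26. At 6 h 1 of 7 was below 0, and at 3 h all 7 were. At 24 h the members' medians against sham were thus below 0 on the ipsilateral side and above 0 on the contralateral side, and neither side passed the test. Within ipsilateral cortex, 24 h against 3 h gave a median of -0.37 with all 7 below 0 and 0 called by edgeR or DESeq2 (0.136% of entries lower and 8.44% higher; no member with an unadjusted p under 0.05). That median was -0.17 under total counts, -0.16 with TMM factors from abundant entries, -0.17 without ipsi_3h replicate 2 and -0.19 without ipsi_24h replicate 1. Within contralateral cortex the same contrast gave a median of 0.27 with all 7 above 0 and 0 called by either tool (0.0% of entries in each direction; no member with an unadjusted p under 0.05). This median was 0.12 with TMM factors from abundant entries and 0.05 under total counts.

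**Figure D4:**
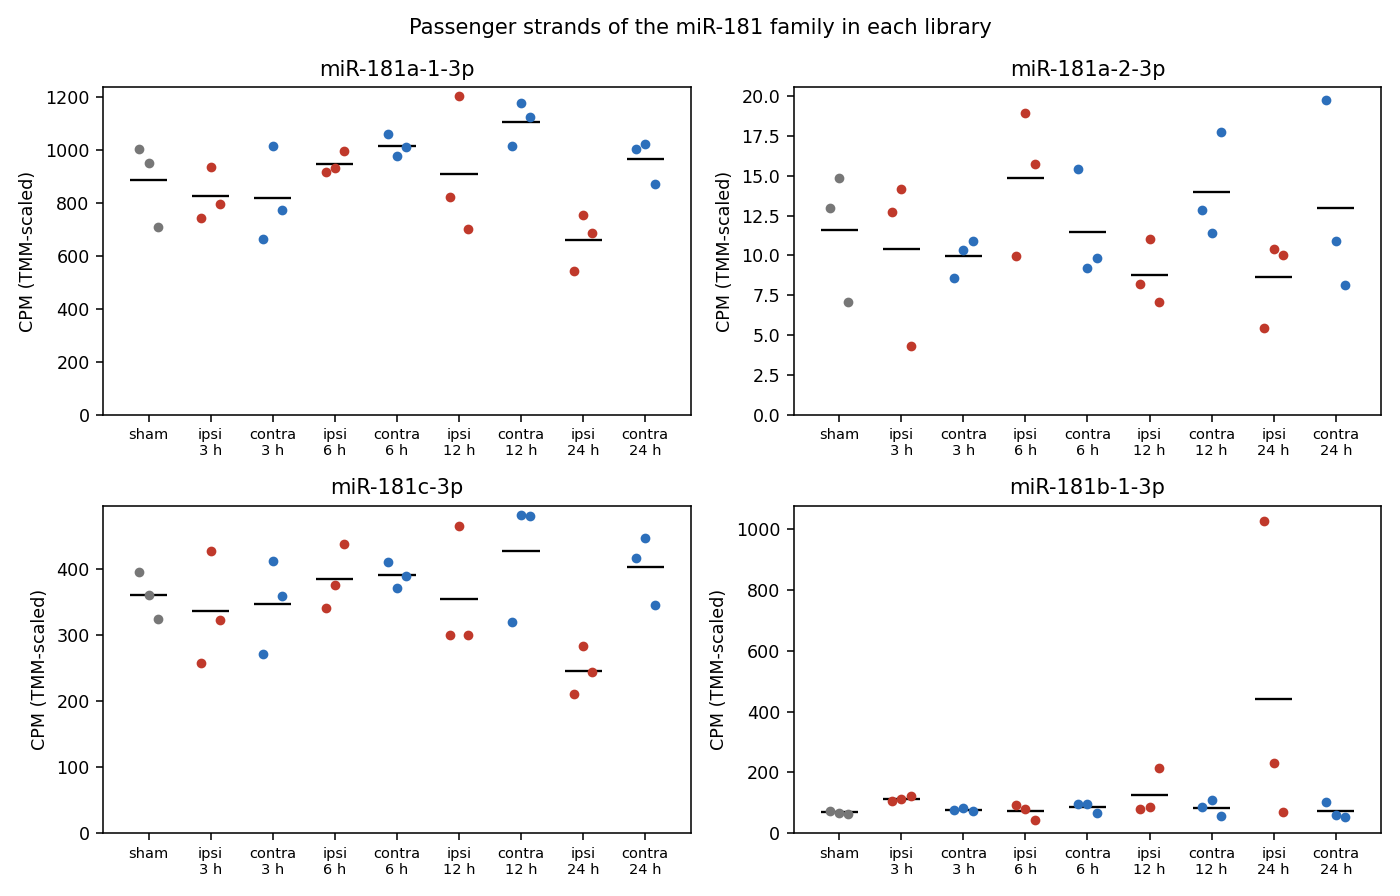
Levels of the 3 member passenger strands and of miR-181b-1-3p (y axes, CPM scaled by TMM, each from 0) in the 27 libraries, grouped on the x axis with sham first and then ipsilateral (red) and contralateral (blue) cortex by time; points are libraries and bars group means. The ipsi_24h mean is the lowest for the 3 members, and for miR-181b-1-3p it is the highest at 443 CPM, set by a library at 1028 CPM.

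Ratios between members within a library do not depend on how libraries are scaled. They were compared over the 12 ipsilateral and contralateral pairs that share a time and a day, with 0.5 added to each count and an exact two-sided sign-flip permutation test, whose smallest possible p here is 0.000488. Pooled over the 4 times, the arm ratios differed little between the hemispheres. The log2 ratio of miR-181c-3p over miR-181c-5p differed by 0.03 between ipsilateral and contralateral cortex (95% interval -0.10 to 0.15; exact p = 0.654). For miR-181a-1-3p over miR-181a-5p the pooled difference was -0.00 (95% interval -0.16 to 0.16; exact p = 0.983). Its values by time were 0.07, -0.16, -0.06 and 0.15 at 3, 6, 12 and 24 h, so the pooled value averages over differences of opposite sign. At 24 h all 3 pairs were above 0, from 0.01 to 0.33, and the times were not tested singly. For miR-181a-2-3p over miR-181a-5p it was 0.01 with a wide 95% interval of -0.47 to 0.48 (exact p = 0.979), and for miR-181a-1-3p over miR-181a-2-3p, which sets the chromosome 1 arm over the chromosome 2 arm, it was -0.01 (95% interval -0.46 to 0.45; exact p = 0.966). No shift between arms or loci was detectable in the pooled test, with bounds that are narrow for the first pair of ratios and wide for those with miR-181a-2-3p. Without the pair of ipsi_6h replicate 3 these 4 differences were 0.05, 0.03, -0.02 and 0.05, in the order given.

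Among the guide strands, miR-181b-5p over miR-181a-5p was higher in ipsilateral cortex by 0.05 ± 0.02 on the log2 scale (SE; 95% interval 0.01 to 0.09), in 9 of 12 pairs. Its exact permutation p of 0.0269 became 0.188 after Benjamini-Hochberg adjustment over the 7 ratios, so it did not pass. By time this ratio differed by 0.10, 0.09, 0.01 and -0.00 at 3, 6, 12 and 24 h, and the times were not tested singly. miR-181c-5p over miR-181a-5p differed by -0.06 (95% interval -0.16 to 0.04; exact p = 0.218, adjusted 0.700). miR-181d-5p over miR-181a-5p also differed by -0.06 (95% interval -0.17 to 0.06; exact p = 0.300, adjusted 0.700). Without the pair of ipsi_6h replicate 3 the differences for miR-181b-5p, miR-181c-5p and miR-181d-5p over miR-181a-5p were 0.04, -0.07 and -0.02, none of them past the threshold. Pooled over times, the proportions of the guide strands from 3 loci thus differed between the hemispheres by no more than these intervals allow.

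**Figure D5:**
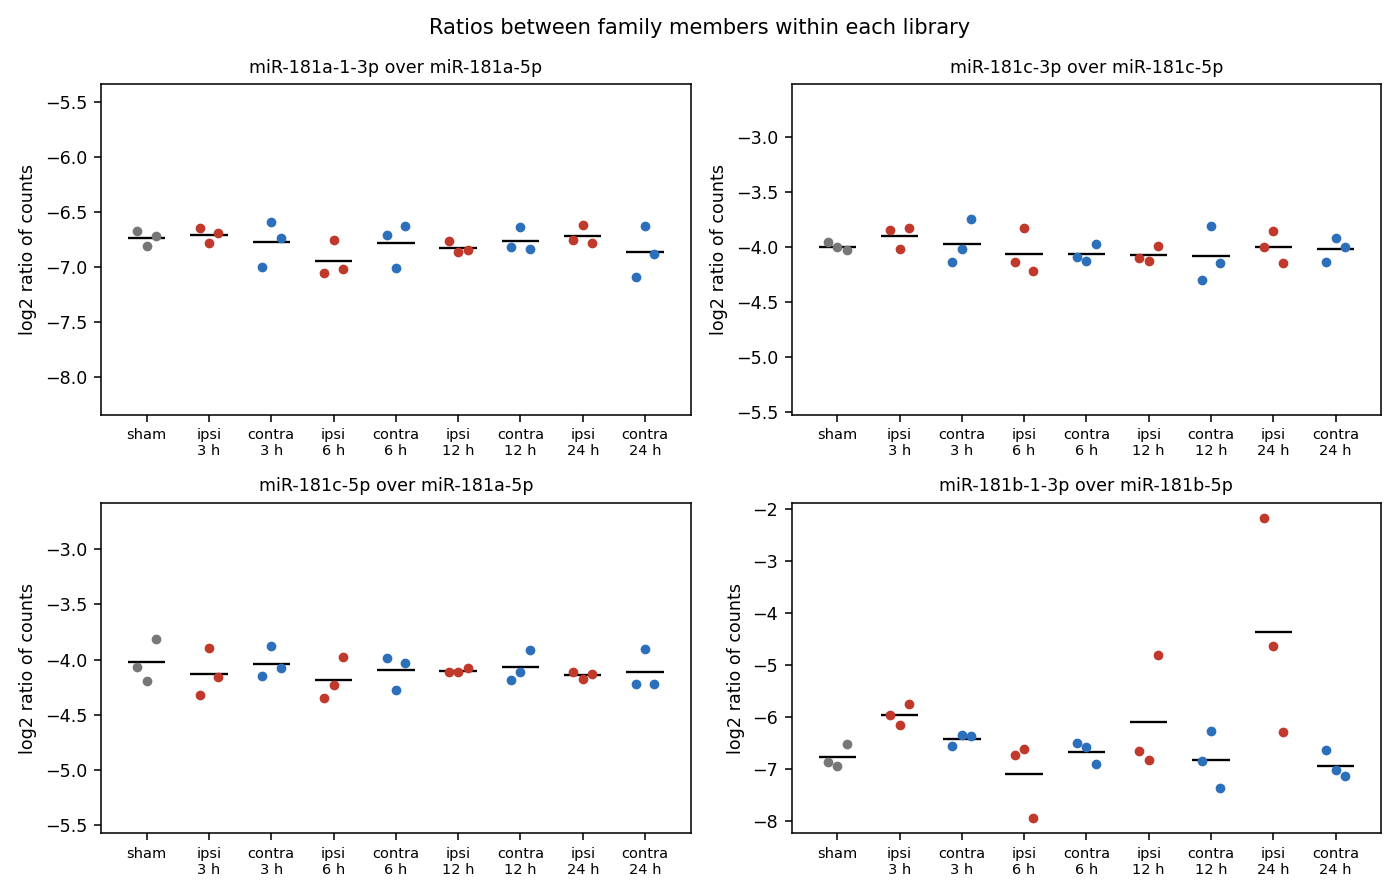
Log2 ratio of counts between family arms within each library (y axes), grouped on the x axis with sham first and then ipsilateral (red) and contralateral (blue) cortex by time; points are libraries and bars group means. The 3 ratios between members stay within a narrow band in every group, while miR-181b-1-3p over miR-181b-5p has its highest values in 2 of the ipsi_24h libraries.

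The context arm miR-181b-1-3p went the other way. It was called higher in ipsi_24h than in contra_24h, by 2.61 ± 0.59 on the log2 scale (SE; adjusted p = 0.00225 in edgeR), where 11.8% of entries were called higher. The counts show that 1 library carried most of this: miR-181b-1-3p had 1506, 331 and 92 counts in ipsi_24h, against 108, 72 and 47 counts in contra_24h. In CPM these were 1028, 230 and 71.0 in ipsi_24h, against 102, 60.5 and 54.8 in contra_24h, and the lowest ipsilateral library lay inside the contralateral range. Without ipsi_24h replicate 1 the log2 fold change was 1.06 and the edgeR adjusted p was 0.249, so the call ended.

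Against sham, whose libraries had 74.5, 67.2 and 64.6 CPM, miR-181b-1-3p in ipsi_24h was higher by 2.69 ± 0.59 on the log2 scale (SE; edgeR adjusted p = 0.00193; 11.3% of entries called higher), and by 1.14 (adjusted p = 0.190) without ipsi_24h replicate 1. Without sham replicate 2 it was higher by 2.66 ± 0.71 (SE; edgeR adjusted p = 0.0161). It was 1 of the entries called in the joint test at any time (edgeR adjusted p = 0.0305) and in the mean over times (log2 fold change 0.87; adjusted p = 0.0431; 11.1% of entries called higher). At 3 h miR-181b-1-3p had 104, 111 and 123 CPM in ipsi_3h, against 76.5, 83.3 and 74.4 CPM in contra_3h. All 3 ipsilateral libraries lay above all contralateral and all sham libraries, where 6.39% of entries were higher without overlap against contra_3h and 7.76% against sham. The pairs within a day differed by 0.41 to 0.71 on the log2 scale, but the fitted 0.53 ± 0.56 (SE) was not called (edgeR adjusted p = 0.998). At 6 h it had 94.5, 80.8 and 44.8 CPM in ipsi_6h, against 94.9, 97.3 and 65.7 CPM in contra_6h. There all 3 pairs were below 0, from -0.54 to -0.01, with the largest gap in the pair of ipsi_6h replicate 3, and the fitted -0.23 ± 0.56 (SE) was not called either (edgeR adjusted p = 0.996). The sign of the fitted difference thus varied between these times. The joint test of whether the hemisphere difference changed over time did not call miR-181b-1-3p (edgeR adjusted p = 0.283). At 12 h a single ipsilateral library also stood high, at 214 CPM beside 79.1 and 87.0 CPM.

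The hairpins that carry it and its close relative are shown for comparison, with both mature arms in capitals.
Mir181b-1: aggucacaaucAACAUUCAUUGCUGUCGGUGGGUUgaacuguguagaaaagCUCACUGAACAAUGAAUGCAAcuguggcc
Mir181b-2: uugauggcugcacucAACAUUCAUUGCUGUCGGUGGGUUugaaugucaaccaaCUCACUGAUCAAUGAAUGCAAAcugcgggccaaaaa
miR-181b-5p, the other arm of the same hairpin, had a lower level in those libraries, so the counts of miR-181b-1-3p per 100 counts of miR-181b-5p were 22.2, 4.05 and 1.28 in ipsi_24h, against 0.997, 0.763 and 0.700 in contra_24h. Over all 27 libraries the median of this measure was 1.04. miR-181a-1-3p, from the neighbouring hairpin 97 bases away, did not show such values, with 0.910 to 1.02 per 100 counts of miR-181a-5p in ipsi_24h, against 0.736 to 1.02 in contra_24h. miR-181b-2-3p, from the chromosome 2 hairpin, had 24, 22 and 22 counts in ipsi_24h, against 24, 26 and 15 counts in contra_24h. Its fitted log2 value of -0.35 ± 0.35 (SE; adjusted p = 0.587 in edgeR) changed sign under total counts (0.15) and under TMM from abundant entries (0.03). The last arm, miR-181d-3p, had 0 to 13 counts per library and was not tested.

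The entries outside the family whose levels ran most like miR-181a-5p were ranked by Pearson's r of log2 CPM over the 27 libraries, among 279 abundant entries. The first 5 were miR-101a-3p (r = 0.95, rho = 0.91), miR-1843b-5p (r = 0.94, rho = 0.90), let-7a-5p (r = 0.94, rho = 0.93), let-7f-5p (r = 0.91, rho = 0.93) and miR-409-3p (r = 0.90, rho = 0.87). The median r over the 279 entries was 0.42, and without the 2 libraries farthest from the median of miR-181a-5p the first 5 kept r between 0.85 and 0.92. The family's own values were 0.95 for miR-181b-5p, 0.91 for miR-181c-5p, 0.90 for miR-181a-1-3p, 0.82 for miR-181c-3p, 0.74 for miR-181d-5p and 0.61 for miR-181a-2-3p. The context arms miR-181b-2-3p and miR-181b-1-3p had r of 0.20 and -0.54. These correlations describe libraries that share scaling factors and days of surgery.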

How the data were processed

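Small RNA was sequenced from 27 cortex samples, with inserts of 15 to 35 bp and reads of 69 bp per the labels' protocols. The authors deposited 1 table of raw counts per mature miRNA; the submitters' processing notes name Novoalign and edgeR, and genome build, annotation release and multi-mapping rules are not named in these sources. All 27 columns were matched to samples by their labels, and 0 columns belong to other samples.

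Counts were tested with edgeR 4.0.16 in R 4.3.3 (TMM factors, filterByExpr, robust quasi-likelihood F test, 1 mean per group, 18 residual degrees of freedom). Benjamini-Hochberg adjustment ran over all 1470 tested entries, which hold 99.9% of counts, and a call is an adjusted p under 0.05. Alternatives were RLE factors, total counts, TMM from entries of at least 100 CPM, no filter, a filter at 10 CPM, DESeq2 1.42.0, a replicate block, fits of 6 libraries, and each library left out. The scripts were tested on simulated data.

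The submitters' design text ties replicate numbers to days of surgery, so they pair the samples. Same-numbered libraries deviated together from their group means (mean correlation 0.23 over 108 pairs). The mean of -0.12 over 216 pairs of different number is not a separate observation, as deviations within a group sum to 0. Replicates differed beyond counting noise, with a chi-square per degree of freedom of at least 11.2. The rule for named entries took all 7 members and the 3 context arms, with the 5 entries most like miR-181a-5p and the cell type markers as summed levels; in comparisons with no call the members are given by counts, medians and ranges. The pair of ipsi_6h replicate 3 was left out of the ratios as an alternative chosen after seeing the data. The members and lists were chosen with earlier results of these data known. The marker miR-126a-5p was not analysed here. Sequences are from RefSeq (GRCm38.p6), with 10 of 10 family entries matched, and overlapping genes from GENCODE on the same build.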

Additional observations from a re-analysis of the deposited data

How the results depend on the processing

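At 24 h, ipsilateral against contralateral, the 3 calls among the 7 members became 0 under total counts, 0 under TMM from abundant entries, 0 with no filter, 0 when only the 6 libraries of these groups were fitted, and 6 with the replicate block. Leaving out 1 library gave 0 to 3 calls. Against sham at 24 h the count of 0 became 2 with the block. For the mean over times the count of 0 became 1 with the block and ranged from 0 to 2 when 1 library was left out; for a difference at any time it ranged from 0 to 1. The higher values of both came without ipsi_12h replicate 2. The block changed no other count of member calls. miR-181c-3p at 24 h was also called by DESeq2 (adjusted p = 0.0285) and with the filter at 10 CPM (0.0234), and miR-181c-5p was not called under RLE factors (0.0631). Over the table, calls at 24 h numbered 21 lower and 174 higher with TMM, 0 and 226 with total counts, 4 and 207 with TMM from abundant entries, and 96 and 198 with the block.

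Small differences in log2 ratio changed sign. With 1 day left out, miR-181c-3p over miR-181c-5p ranged from -0.034 to 0.079, miR-181a-1-3p over miR-181a-5p from -0.051 to 0.030, miR-181a-2-3p over miR-181a-5p from -0.21 to 0.12, and miR-181a-1-3p over miR-181a-2-3p from -0.16 to 0.23. Without the pair of ipsi_6h replicate 3, an alternative chosen after seeing the data, miR-181a-1-3p over miR-181a-5p was 0.034, miR-181a-2-3p over miR-181a-5p -0.018 and miR-181a-1-3p over miR-181a-2-3p 0.051. Without the 24 h pairs miR-181a-2-3p over miR-181a-5p was -0.046. miR-181b-2-3p at 24 h reversed to 0.15 under total counts and 0.025 under TMM from abundant entries. The cause of these changes was not tested.

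With 3 libraries a group, the 95% intervals of the members' hemisphere differences at 3, 6 and 12 h all include 0, and at 4 to 22 counts miR-181a-2-3p limits every ratio that uses it. The TMM factors differ between the hemispheres at 24 h, and a fall in abundant entries relative to many rare entries cannot be told apart here from a rise of the rare ones.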
